A study of Mus musculus with 6 samples.

Results

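The 10 genes of the MHC class II antigen presentation pathway described here are H2-Aa, H2-Ab1, H2-Eb1, H2-DMa, H2-DMb1, H2-Oa, H2-Ob, Cd74, Ciita and Ctss. They were taken by symbol from the 20866 genes that the probes of the array could be named for, each read by its brightest probe, and all 10 were on the array. The study profiled sorted thymic cells of C57BL/6 mice aged 1.5 to 2 weeks on 6 one-colour Agilent arrays, 1 array for each of 2 genotypes in 3 populations. The genotypes were the double knockout of TNFalpha and RelA (TAKO) and the single knockout of TNFalpha (TKO), so that by their labels mice of both genotypes lacked TNFalpha and differed in RelA, the p65 subunit of NF-kB. The populations were CD45-EpCAM+ cells, the gate for thymic epithelium, CD45+EpCAM- cells, a haematopoietic fraction that per the design text holds macrophages or dendritic cells, and CD4+CD25hi thymocytes, among which regulatory T cells are frequent. RNA came from a pool of 10 thymi per genotype for each of the first 2 populations and of 5 mice per genotype for the thymocytes. No promoter-driven deletion or cell-type-specific Cre is named in the labels, and a pool is 1 sample.

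MHC class II molecules are pairs of an alpha and a beta chain that show peptides to CD4+ T cells. They are assembled in the endoplasmic reticulum on the invariant chain, a product of Cd74, which is then degraded in endosomes by cathepsins until only a short fragment fills the groove. The DM heterodimer (H2-DMa, H2-DMb1) exchanges that fragment for peptides, the DO heterodimer (H2-Oa, H2-Ob) restrains DM, and CIITA, the product of Ciita, is the master coactivator of class II transcription. In the thymus, epithelial cells of the cortex use class II for positive selection of CD4+ T cells, while medullary epithelial cells, dendritic cells and B cells use it for tolerance and for the selection of regulatory T cells.

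Each value below is a level, the log2 processed signal of a probe minus the array's 75th percentile, so that a level of 1 stands for a signal 2 times that percentile. Levels are compared for the same probe between arrays and not between probes, although summed levels of marker lists add different probes. The 75th percentile of the signal ranged from 108 to 675, lowest on the double-knockout CD45-EpCAM+ array, where 47.3% of probes were well above background against 55.1% to 66.2% on the other arrays. No probe was saturated. Every population had less Rela signal in the double knockout, with log2 differences of -2.02 for the epithelial fraction, -0.74 for the CD45+EpCAM- fraction and -1.86 for the thymocytes, although its probe cannot be placed against the disrupted part here. Tnf, labelled as knocked out in all mice, gave a signal well above background on 5 of the 6 arrays, with levels of -0.64 and -0.57 in CD45+EpCAM- cells and -0.78 and -0.63 in thymocytes, double knockout first, and -1.49 in TNF-knockout epithelial cells. Whether its probe lies in the part removed is not given in the sources used here, so the probe does not bear out that label. All 5 general epithelial markers (Epcam, Krt8, Krt18, Foxn1 and Cdh1) were well above background on both CD45-EpCAM+ arrays, and all 8 macrophage markers on both CD45+EpCAM- arrays. All 9 T lineage markers were well above background on every array, those of the stromal fractions included. Their summed level, the log2 of the summed linear values, was 8.39 and 8.43 in CD45+EpCAM- cells, double knockout first. In CD4+CD25hi thymocytes it was 8.13 and 8.22, so that T lineage signal in the CD45+EpCAM- fraction was as high as in sorted thymocytes. The 2 arrays of a population shared a slide and each population had its own, and the effects of slide and of population cannot be told apart.

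H2-Aa, H2-Ab1, H2-Eb1, H2-DMb1 and Cd74 were highest in CD45-EpCAM+ cells, lower in CD45+EpCAM- cells and lowest in CD4+CD25hi thymocytes, while the other 5 genes did not all keep that order. Of the 10 genes, 7 were called higher in the epithelial than in the CD45+EpCAM- fraction (limma, adjusted p under 0.05 and at least 2-fold) and none lower, against 19.4% of all 13743 genes tested called higher and 19.2% lower. Their median difference was 3.16, against -0.14 for all genes tested. The 7 were H2-Aa, H2-Ab1, H2-Eb1, H2-DMa, H2-DMb1, H2-Oa and Cd74, while H2-Ob, Ciita and Ctss did not pass. With 1 array left out, H2-Aa and H2-Eb1 missed the threshold without the TNF-knockout epithelial array (limma adjusted p = 0.0523 and 0.0709) or the double-knockout CD45+EpCAM- array (0.0512 and 0.0632), and H2-Ab1 and H2-Eb1 without the double-knockout epithelial array (0.0566 and 0.062). All 10 genes were among those tested. Since the CD45+EpCAM- fraction also held strong T lineage signal, this is not a comparison of epithelium with macrophages or dendritic cells alone. Each population has 1 array of each genotype, so that means, SDs and p-values over 2 arrays span the genotypes, and no spread among replicate pools is measured.

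**Figure D1:**
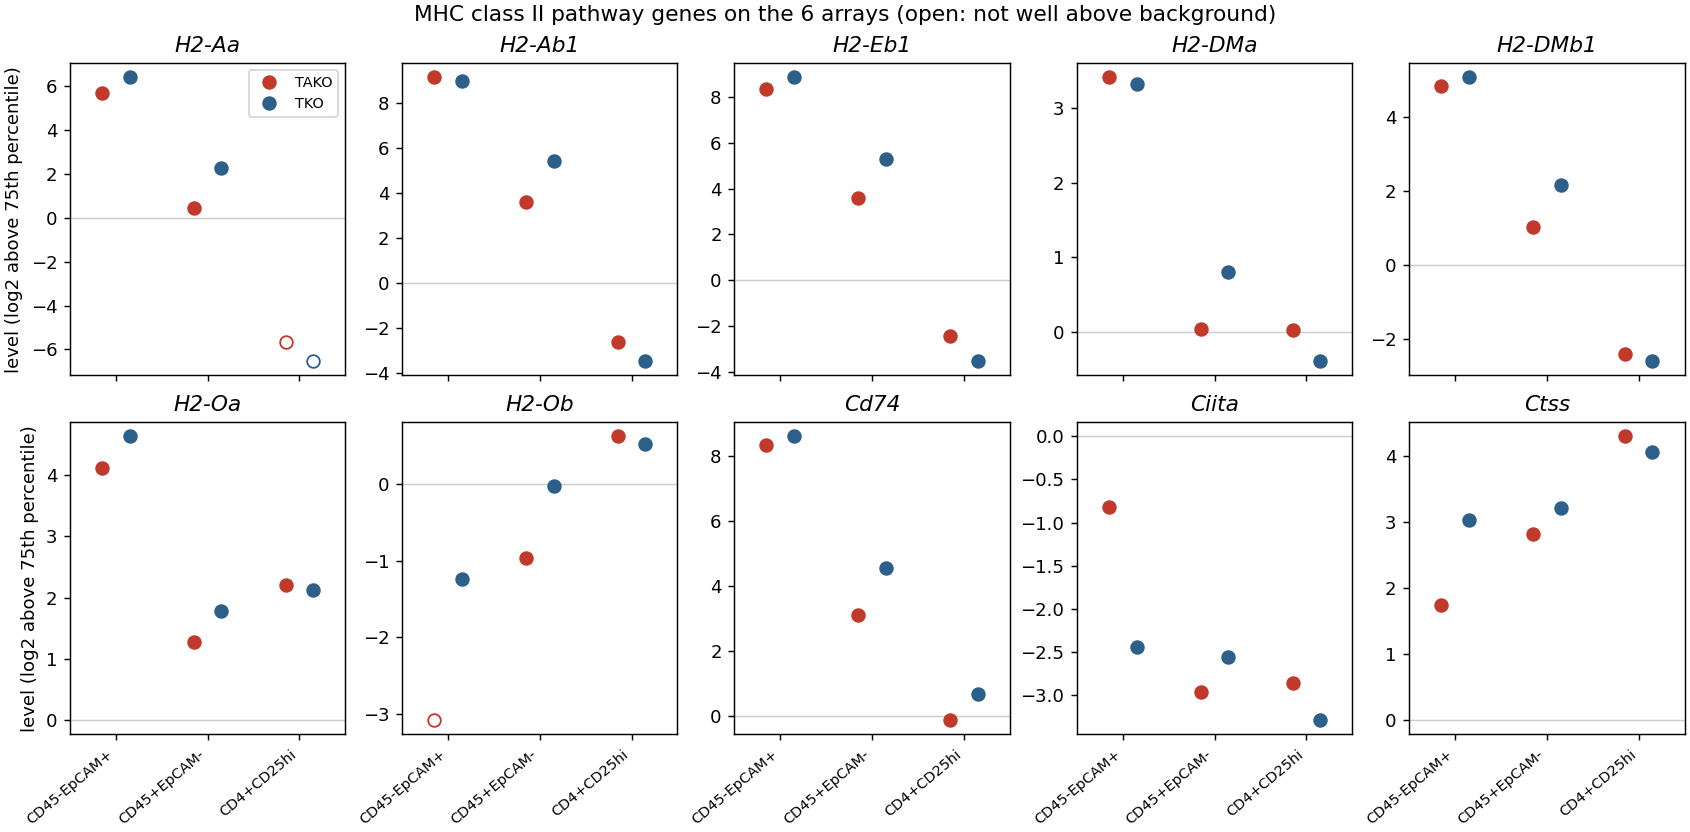
Levels (log2 above the array's 75th percentile) of the 10 genes on each of the 6 arrays, by population, with the double knockout (TAKO, red) left of the TNF knockout (TKO, blue); open points were not well above background and each panel has its own axis. H2-Ab1 stood at 9.15 and 8.98 in CD45-EpCAM+ cells, 3.62 and 5.44 in CD45+EpCAM- cells and -2.61 and -3.46 in CD4+CD25hi thymocytes.

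The peptide-binding chains come first. H2-Ab1, the beta chain of the I-A molecule, had levels of 9.15 in double-knockout and 8.98 in TNF-knockout CD45-EpCAM+ cells, 3.62 and 5.44 in CD45+EpCAM- cells and -2.61 and -3.46 in CD4+CD25hi thymocytes, in the same genotype order. The 3 populations did not overlap. It was 4.53 (SE 0.73, limma adjusted p = 0.013) higher in the epithelial than in the CD45+EpCAM- fraction, a fold of 23.1. H2-Aa, the I-A alpha chain, had levels of 5.69 in double-knockout and 6.39 in TNF-knockout CD45-EpCAM+ cells and 0.44 and 2.26 in CD45+EpCAM- cells, a difference between the populations of 4.69 (SE 0.71, limma adjusted p = 0.0115). Neither CD4+CD25hi array had it well above background, so that CD45-EpCAM+ cells were at least 1688-fold higher than these thymocytes. For this bound the thymocyte side is the lowest signal that counted as well above background there. The bound itself was not tested; the fit used the dim values as measured (12.14, SE 0.71, limma adjusted p = 0.00217). H2-Eb1 encodes the beta chain of I-E, a molecule that C57BL/6 mice do not form because their H2-Ea gene is a pseudogene. Its transcript stood at 8.34 in double-knockout and 8.85 in TNF-knockout CD45-EpCAM+ cells, 3.57 and 5.31 in CD45+EpCAM- cells and -2.41 and -3.52 in CD4+CD25hi thymocytes. It was 4.16 (SE 0.75, limma adjusted p = 0.0166) higher in the epithelial than in the CD45+EpCAM- fraction.

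Cd74, the invariant chain, followed the same order. Its level was 8.33 in double-knockout and 8.61 in TNF-knockout CD45-EpCAM+ cells, 3.10 and 4.54 in CD45+EpCAM- cells and -0.13 and 0.67 in CD4+CD25hi thymocytes. Its mean was 8.47 ± 0.19 (SD, n = 2) in the epithelial fraction, against 3.82 ± 1.02 (SD, n = 2) in the CD45+EpCAM- fraction, and the populations differed by 4.65 (SE 0.33, limma adjusted p = 0.00345). Between CD45+EpCAM- cells and thymocytes it differed by 3.55 (SE 0.33, limma adjusted p = 0.0167). Among 13743 genes, the profiles over the 6 arrays nearest to that of H2-Ab1, each centred on its own mean, were H2-Aa at a root mean square distance of 0.26, H2-Eb1 at 0.31, the cysteine protease gene Ctsh at 1.48, Tgfbi at 1.49 and Slco2b1 at 1.54. Of the other 9 genes, 4 lay among its 100 nearest: H2-Aa, H2-Eb1, Cd74 at rank 21 and H2-DMb1 at rank 26.

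The peptide editors differed in how far the thymocytes shared them. H2-DMb1, the beta chain of DM, had levels of 4.83 in double-knockout and 5.08 in TNF-knockout CD45-EpCAM+ cells, 1.03 and 2.17 in CD45+EpCAM- cells and -2.40 and -2.59 in CD4+CD25hi thymocytes, without overlap of populations. It was 3.36 (SE 0.37, limma adjusted p = 0.00621) higher in the epithelial than in the CD45+EpCAM- fraction; the similar gene H2-DMb2 may share its probe's signal. H2-DMa, the alpha chain of DM, was at 3.42 and 3.32 in CD45-EpCAM+ cells, 0.03 and 0.80 in CD45+EpCAM- cells and 0.03 and -0.40 in CD4+CD25hi thymocytes, double knockout first. It was 2.95 (SE 0.34, limma adjusted p = 0.00673) higher in the epithelial than in the CD45+EpCAM- fraction, while between CD45+EpCAM- cells and thymocytes its difference of 0.60 (SE 0.34, limma adjusted p = 0.292) did not pass.

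The genes of DO were well above background in CD4+CD25hi thymocytes. H2-Oa, the DO alpha chain, had levels of 4.11 in double-knockout and 4.64 in TNF-knockout CD45-EpCAM+ cells, 1.28 and 1.78 in CD45+EpCAM- cells and 2.21 and 2.13 in CD4+CD25hi thymocytes. It was 2.84 (SE 0.21, limma adjusted p = 0.00366) higher in the epithelial than in the CD45+EpCAM- fraction, and the 0.63 by which CD45+EpCAM- cells lay below thymocytes did not pass (-0.63, SE 0.21, limma adjusted p = 0.131). H2-Ob, the DO beta chain, ran in the opposite order, at -3.08 and -1.23 in CD45-EpCAM+ cells, -0.96 and -0.02 in CD45+EpCAM- cells and 0.63 and 0.52 in CD4+CD25hi thymocytes, double knockout first. Its first value was not well above background. H2-Ob was lower in CD45-EpCAM+ cells than in thymocytes by limma (-2.74, SE 0.52, adjusted p = 0.0189), and the difference between the stromal fractions did not pass (-1.67, SE 0.52, limma adjusted p = 0.0613), although it did without either thymocyte array (0.0383) or the TNF-knockout epithelial array (0.0331). Its second probe gave -2.32 and -0.33 in CD45-EpCAM+ cells and 0.04 and -0.38 in thymocytes, so that the order of the populations was less clear there, and with the mean over probes the call against thymocytes was lost (limma adjusted p = 0.0533), as it was without the double-knockout thymocyte array (0.0604).

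Ciita and Ctss did not follow the class II chains. Ciita, the coactivator gene, lay below the 75th percentile on every array, with levels of -0.82 in double-knockout and -2.44 in TNF-knockout CD45-EpCAM+ cells, -2.96 and -2.55 in CD45+EpCAM- cells and -2.86 and -3.29 in CD4+CD25hi thymocytes. None of its 3 differences between populations passed, the widest being 1.45 between CD45-EpCAM+ cells and thymocytes (SE 0.54, limma adjusted p = 0.0908; 0.0262 without the TNF-knockout epithelial array). The 5 profiles nearest to that of Ciita were those of Olfr649, Utp14b, Nodal, Ccdc144b and 2210408I21Rik, at distances of 0.10 to 0.24, and none of the other 9 genes lay among its 100 nearest. Ctss, the cathepsin that completes degradation of the invariant chain in bone marrow-derived cells, ran in the reverse order. It stood at 1.75 and 3.03 in CD45-EpCAM+ cells, 2.82 and 3.22 in CD45+EpCAM- cells and 4.31 and 4.07 in CD4+CD25hi thymocytes, double knockout first. The stromal fractions overlapped (-0.63, SE 0.41, limma adjusted p = 0.261; 0.0499 without the TNF-knockout epithelial array), and CD45-EpCAM+ cells were lower than thymocytes (-1.80, SE 0.41, limma adjusted p = 0.029). That call was lost without either thymocyte array or either CD45+EpCAM- array (limma adjusted p = 0.0503 to 0.115) and with quantile normalization (0.0646).

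Against CD4+CD25hi thymocytes, 7 of the 10 genes were higher in CD45-EpCAM+ cells and 2 lower (limma; 20.7% and 18.3% of all genes tested). In CD45+EpCAM- cells 5 were higher than in thymocytes and none lower (limma; 7.81% and 4.8% of all genes). These 5 were H2-Aa, H2-Ab1, H2-Eb1, H2-DMb1 and Cd74. Without any one of the 4 arrays of these 2 populations none of the 5 passed, nor did any other gene of the array, although their differences stayed between 3.10 and 8.73.

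**Figure D2:**
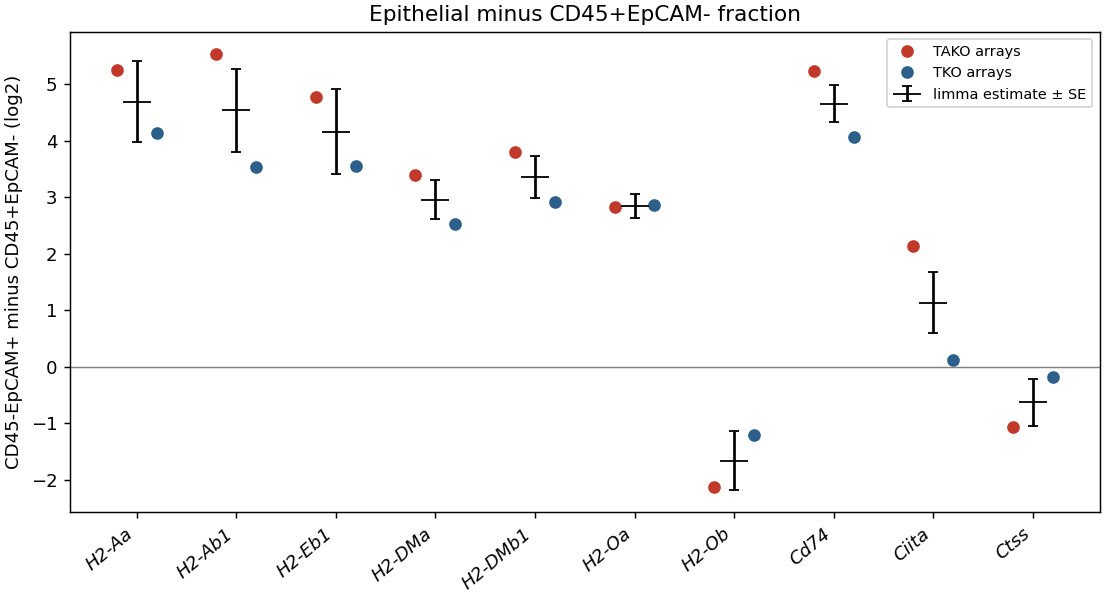
Difference in level (log2) between CD45-EpCAM+ and CD45+EpCAM- cells for each gene, with the limma estimate and its SE in black, the double-knockout (TAKO) arrays in red and the TNF-knockout (TKO) arrays in blue. For H2-Aa, H2-Ab1, H2-Eb1, H2-DMa, H2-DMb1 and Cd74 the red point lies above the blue one, as at 5.53 against 3.53 for H2-Ab1, while for H2-Oa the points nearly coincide.

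The gap between the stromal fractions was wider in the double knockout for 6 of the 7 genes called higher. In double-knockout arrays H2-Ab1 was 46.2-fold and in TNF-knockout arrays 11.6-fold higher in the epithelial than in the CD45+EpCAM- fraction. For H2-Aa the folds were 38.0 and 17.5, for H2-Eb1 27.3 and 11.7, for Cd74 37.6 and 16.7, and for H2-DMb1 14.0 and 7.53, double knockout first. H2-DMa was 3.39 higher on the log2 scale in double-knockout and 2.52 in TNF-knockout arrays. For H2-Oa the folds were 7.11 and 7.23. The size of this widening depended on the processing. With normexp the genotype difference in CD45-EpCAM+ cells was -1.44 for H2-Eb1 and -1.19 for H2-Aa, in place of -0.51 and -0.70. In CD45+EpCAM- cells it stayed at -1.74 to -1.67 and -1.82 to -1.66 over the settings tried, so that under normexp the gaps of the 2 genotypes were closer. With 1 array per genotype and population this difference between genotypes has no test.

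In CD45+EpCAM- cells all 10 genes were lower in the double knockout than in the TNF knockout. At least 2-fold lower were 5 of 10, H2-Aa, H2-Ab1, H2-Eb1, H2-DMb1 and Cd74, and none was 2-fold higher, against 2.08% of all 14588 genes measured in this pair that were at least 2-fold lower and 1.82% higher (3.89% either way). The median of the 10 genes was -1.04, against -0.01 for all genes. In these bulk samples fewer class II-positive cells and less RNA per cell cannot be told apart. With 1 array per genotype the differences have no replicate check; probes of the same gene differed among themselves with an SD of 0.21 in this pair.

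**Figure D3:**
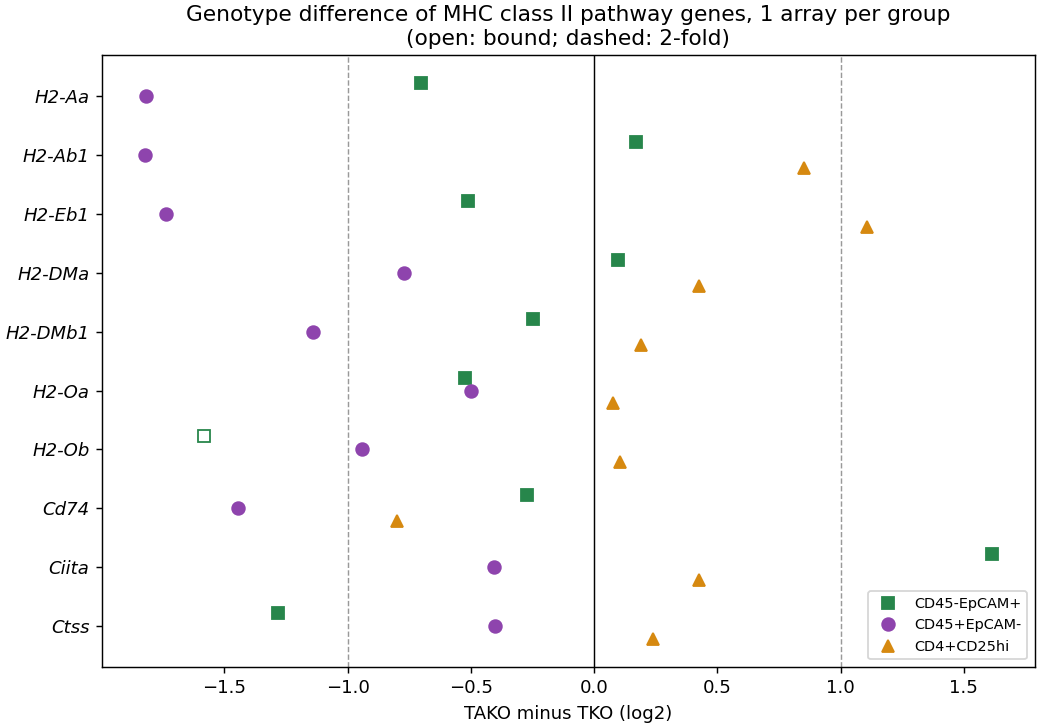
Difference in level between the double knockout and the TNF knockout (TAKO minus TKO, log2) for each gene in CD45-EpCAM+ cells (squares), CD45+EpCAM- cells (circles) and CD4+CD25hi thymocytes (triangles), 1 array per group; the open square is a bound and dashed lines mark 2-fold. All circles lie left of 0, from -1.82 to -0.40, while the triangles lie right of 0 except that of Cd74 at -0.80.

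The differences of the peptide-binding chains were the widest of the 10. H2-Ab1 had a level of 3.62 in double-knockout and 5.44 in TNF-knockout CD45+EpCAM- cells, a fold of 3.54 lower, with a difference of -1.77 by its second probe. It stood at rank 81 of 14588 genes counted from the lowest difference. H2-Aa was 3.53-fold lower (0.44 against 2.26) at rank 83, and H2-Eb1 3.33-fold lower (3.57 against 5.31) at rank 99. Cd74 was 2.72-fold lower (3.10 against 4.54) and H2-DMb1 2.21-fold lower (1.03 against 2.17). The others were within 2-fold. H2-Ob differed by -0.94, and by -1.07 by its second probe, H2-DMa by -0.77, H2-Oa by -0.50, Ciita by -0.41 and Ctss by -0.40. The remaining class II genes on the array, H2-DMb2 and H2-Eb2, which encode a second DM beta chain and a further E beta chain, differed by -1.52 (levels -3.68 and -2.16) and -1.35 (levels -2.87 and -1.52).

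Promoter windows show what the class II genes of this locus share in sequence beside their joint difference. Windows from 250 bases before to 50 bases after the start were taken from RefSeq (GRCm38.p6) and used here for 7 of the 10 genes, with 2 windows for H2-DMa. They were searched on both strands for an X box core (GCAAC, any base, G, any base, TG), bound by the RFX complex in class II promoters, for the CCAAT box bound by NF-Y, and for a loose NF-kB pattern (GGG and CC with 5 bases of any kind between them). The windows of H2-Aa (chr17:34287774-34288073, minus strand) and H2-Eb1 (chr17:34305617-34305916, plus strand), 2 of the genes with the widest difference, and of H2-Oa (chr17:34092129-34092428, plus strand), with one of the narrowest, are printed with the X box core and CCAAT in either orientation in capitals.
H2-Aa: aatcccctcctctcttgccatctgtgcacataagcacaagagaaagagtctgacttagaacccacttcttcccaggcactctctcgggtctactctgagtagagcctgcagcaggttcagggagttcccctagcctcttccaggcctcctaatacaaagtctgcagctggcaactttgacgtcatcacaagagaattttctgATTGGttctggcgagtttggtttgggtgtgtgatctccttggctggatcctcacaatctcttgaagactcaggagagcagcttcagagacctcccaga
H2-Eb1: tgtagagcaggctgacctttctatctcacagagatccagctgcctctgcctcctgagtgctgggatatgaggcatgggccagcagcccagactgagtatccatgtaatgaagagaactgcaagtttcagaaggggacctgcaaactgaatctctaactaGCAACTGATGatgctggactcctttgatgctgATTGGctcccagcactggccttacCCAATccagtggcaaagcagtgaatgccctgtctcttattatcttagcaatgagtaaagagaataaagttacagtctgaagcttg
H2-Oa: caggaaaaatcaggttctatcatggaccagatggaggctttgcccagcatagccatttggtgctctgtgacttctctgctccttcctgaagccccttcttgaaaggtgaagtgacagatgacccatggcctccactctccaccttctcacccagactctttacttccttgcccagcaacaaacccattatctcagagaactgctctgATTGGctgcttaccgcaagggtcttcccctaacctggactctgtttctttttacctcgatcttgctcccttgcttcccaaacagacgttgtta

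The 3 windows share a CCAAT box in reverse orientation (ATTGG) at a like distance from the start. It lay at bases -48 to -44 in H2-Aa, -59 to -55 in H2-Eb1 and -43 to -39 in H2-Oa, and the same box lay at -61 to -57 in H2-DMb1 and -57 to -53 in H2-Ob. Neither window of H2-DMa held it there, the second having it at -198 to -194, and the window of Ctss held no CCAAT. Of all 32851 windows, 37.4% hold CCAAT anywhere on either strand and 3.46% hold ATTGG between bases -65 and -35, limits set after these positions had been seen. The X box core was matched in H2-Eb1 alone (bases -91 to -82, GCAACTGATG), against 0.861% of all windows. The search took only these letters, so that an X box with other letters would be missed and its absence elsewhere is not shown. The NF-kB pattern was matched in the windows of H2-Aa (bases -131 to -122, GGGAGTTCCC), H2-Eb1, H2-DMa and H2-Oa, and in 50.8% of all windows; it can overlap with itself on the opposite strand. These matches are letters in a window and were not measured as bound.

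The genes that lie between the class II genes on chromosome 17 were all within 2-fold between the genotypes. In the order of the reference table, Brd2 and the antigen processing genes Psmb9, Tap1, Psmb8 and Tap2, which serve MHC class I, lie among the class II genes. In CD45+EpCAM- cells they differed by -0.04, -0.35, -0.38, -0.03 and -0.06, whereas the 9 class II genes of the region on the array differed by -0.50 to -1.82. This group of neighbours was chosen after values had been seen, and its difference from the class II genes was not tested.

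**Figure D4:**
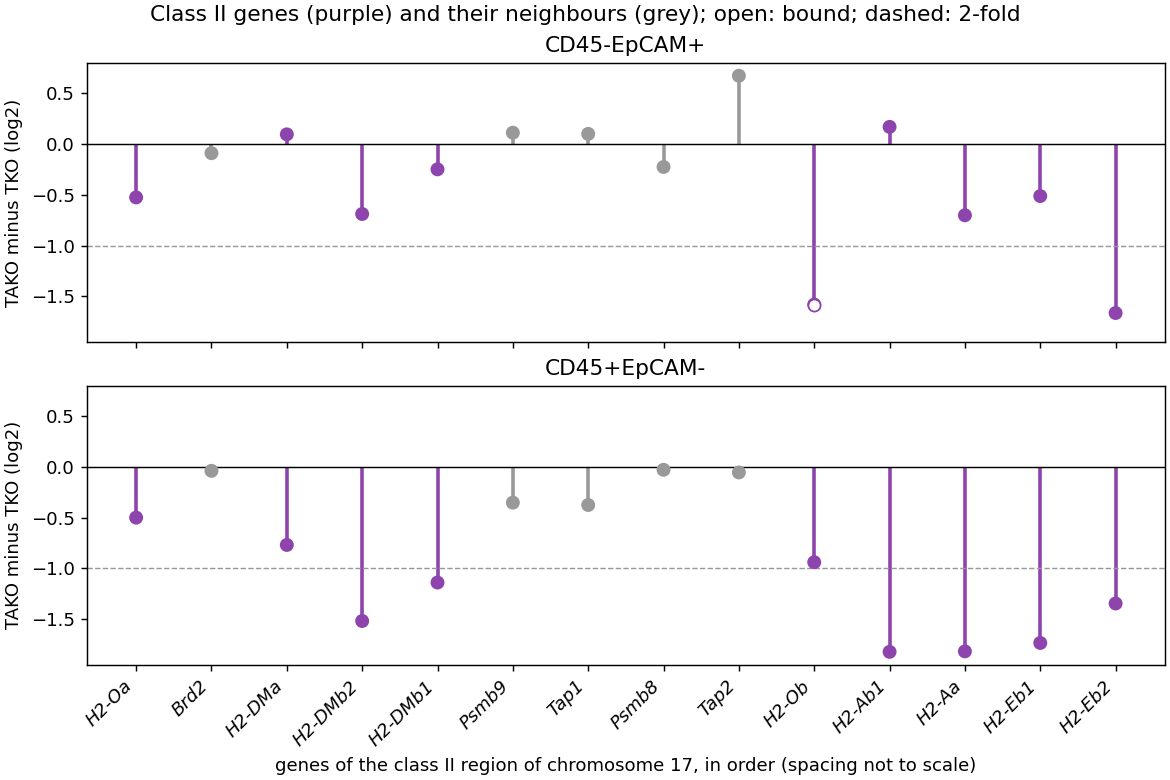
Difference between the double knockout and the TNF knockout (TAKO minus TKO, log2) for the genes on the array from H2-Oa to H2-Eb2 in chromosomal order, in CD45-EpCAM+ cells (top) and CD45+EpCAM- cells (bottom); class II genes are purple, their neighbours grey, the open point is a bound and the dashed line marks 2-fold lower. In the lower panel the purple points lie from -0.50 to -1.82 and the grey points from -0.03 to -0.38.

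In CD45+EpCAM- cells some markers of class II-rich cell types were also lower in the double knockout, while others differed little. Of 8 conventional dendritic cell markers 4 were at least 2-fold lower in the double knockout, Cd209a (-1.92), Flt3 (-1.83), Clec9a (-1.75) and Itgax (-1.46), while Batf3 differed by -0.45, Zbtb46 by -0.08 and Sirpa by 0.50, with a list median of -1.02. Their summed level was 1.93 in the double knockout and 2.47 in the TNF knockout, and Xcr1 was not well above background in the double knockout. Of 6 plasmacytoid dendritic cell markers 4 were lower, Spib (-1.82), Irf8 (-1.78), Bst2 (-1.21) and Tcf4 (-1.20), while Ccr9 differed by -0.17 and Siglech by -0.03. The list's summed level was 7.22 in the double knockout and 7.46 in the TNF knockout, most of it from Siglech, whose levels were 6.87 and 6.89. Siglech was no lower in CD4+CD25hi thymocytes, at 7.42 and 7.28, so that its signal was not particular to this fraction. Of the B cell markers Blnk was at least 2-fold lower (-1.48). Within 2-fold, Cd79a differed by -0.79, Ebf1 by -0.70, Ms4a1 by -0.61, Pax5 by -0.26, Cd79b by -0.22 and Cd22 by 0.12. The list had a median of -0.66 and a summed level of 3.21 against 3.93 in the TNF knockout. Macrophage markers other than Lyz2 (-0.37) went the other way. Of 8, 2 were at least 2-fold higher, Mertk (1.13) and Fcgr1 (1.01), while C1qa differed by 0.77 and Adgre1 by 0.54. The summed level of the macrophage list was 4.28 against 3.56 in the TNF knockout. T lineage markers had summed levels of 8.39 and 8.43, with none 2-fold apart. The part of these cell types in the lower class II transcripts was not tested.

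In CD45-EpCAM+ cells the class II chains were within 2-fold between genotypes, while Ciita was higher and Ctss and H2-Ob lower in the double knockout. Of the 10 genes 2 were at least 2-fold lower and 1 higher, against 9.3% of all 13208 genes measured lower and 5.1% higher (14.4% either way), and their median was -0.39 against 0.03 for all genes. Probes of the same gene differed among themselves with an SD of 0.32 in this pair, whose double-knockout array was the dimmest. H2-Ab1 was at 9.15 in the double knockout and 8.98 in the TNF knockout, a difference of 0.17 that turned to -0.54 with normexp and -0.43 with quantile normalization. H2-Aa differed by -0.70 and H2-Eb1 by -0.51, which passed 2-fold with normexp at -1.19 and -1.44. Cd74 differed by -0.27, H2-DMb1 by -0.25, H2-Oa by -0.53 and H2-DMa by 0.10, the last turning to -0.33 with normexp.

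The widest differences in CD45-EpCAM+ cells were at the coactivator, the cathepsin and DO beta. Ciita stood at -0.82 in the double knockout and -2.44 in the TNF knockout, 3.06-fold higher, at rank 186 of 13208 genes from the highest. Its difference was 1.17 to 1.96 over the settings tried. It was read by 1 probe of low signal. The lowest level well above background also rose between these arrays, at -2.82 in the double knockout against -4.78 in the TNF knockout. Whether this bears on the difference of Ciita was not tested. Ctss stood at 1.75 against 3.03 in the TNF knockout, 2.43-fold lower. H2-Ob was at least 2.99-fold lower, since its main probe was not well above background in the double knockout, and its second probe, well above background on both arrays, differed by -1.99; with normexp the main probe's difference was -0.24. H2-Eb2, which is not among the 10 genes, was 3.17-fold lower (1.58 against 3.24).

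Markers of the epithelial subsets and of other cells also differed in this pair. Of 7 medullary markers 4 were at least 2-fold lower in the double knockout, Aire (-1.90), Fezf2 (-1.88), Tnfrsf11a (-1.58) and Cldn4 (-1.37). Krt14 (-0.79), Cd80 (-0.74) and Krt5 (-0.01) were within 2-fold. The list's summed level was 6.64 against 6.93 in the TNF knockout, most of it from Krt5, whose levels were 6.43 and 6.44. Of 7 cortical markers 1 was 2-fold higher, Ly75 (1.11), with a list median of 0.60 and a summed level of 10.2 against 9.54. The summed level of T lineage markers was 7.05 in the double knockout and 6.16 in the TNF knockout and that of macrophage markers 3.19 and 2.61. Of the macrophage list Fcgr1 (1.77) and C1qc (1.35) were at least 2-fold higher in the double knockout and Lyz2 (-1.43) lower. The summed level of conventional dendritic cell markers was 0.82 and 1.03, with only Sirpa of 8 well above background in the double knockout. That of B cell markers was 3.48 and 4.84, most of it from Blnk, whose levels were 2.79 and 4.61. On the same list Cd22 was higher (1.02), while Ebf1 differed by 0.26 and Cd79b by -0.16. Cd79a and Ms4a1 were not well above background in the double knockout and Pax5 not in either genotype. Their part in the differences was not tested.

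In CD4+CD25hi thymocytes the peptide-binding chains and H2-DMb1 lay below the 75th percentile on both arrays, and H2-Oa and the main probe of H2-Ob above it. The second probe of H2-Ob stood at 0.04 and -0.38, double knockout first. H2-Aa gave no fold. Of the 9 genes measured, 1 was at least 2-fold higher and none lower, against 1.68% of all 12937 genes higher and 1.28% lower, and the median was 0.24 against -0.02 for all genes. H2-Eb1 stood at -2.41 in the double knockout and -3.52 in the TNF knockout, a difference of 1.11 that was 0.46 with normexp and 0.96 with quantile normalization. H2-Ab1 differed by 0.85 by either of its probes (0.85 and 0.86), and Cd74 by -0.80. The remaining 6 genes differed by 0.08 to 0.43, H2-Oa least. The summed level of B cell markers was 2.10 in the double knockout and 1.37 in the TNF knockout, with Ms4a1 at least 3.08-fold higher in the double knockout, Cd79b and Cd79a differing by 0.85 and 0.62, and Ebf1 well above background in neither genotype. The part of such cells was not tested.

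No gene passed the test for an effect common to the populations. By limma with population as a block, none of the 10 genes passed, with adjusted p from 0.679 to 0.93, nor did any of the 13743 genes tested. Rela did not pass either, although its signal was lower in the double knockout in all 3 populations (-2.02, -0.74 and -1.86). With 2 residual degrees of freedom the lack of calls does not show that such an effect is absent. At an unadjusted p under 0.05 there were 872 genes, among them 1 of the 10, Cd74 (-0.84, SE 0.27, limma adjusted p = 0.679), which was lower in the double knockout in all 3 populations. For the others the sign or size differed between populations, as for Ciita, at 1.62, -0.41 and 0.43 in CD45-EpCAM+ cells, CD45+EpCAM- cells and thymocytes.

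Other genes of the pathway were read from lists of its parts. Of 9 lysosomal genes tested, 5 were higher in the epithelial than in the CD45+EpCAM- fraction by limma and none lower. Among them were Prss16, the thymus-specific serine protease of cortical epithelium (11.42, SE 0.31, limma adjusted p = 0.00182), and Ctsl, the cathepsin that degrades the invariant chain in cortical epithelium (6.36, SE 0.52, limma adjusted p = 0.00405). Between genotypes in CD45-EpCAM+ cells Ctsl differed by 0.92, while Ctsh, Ctsz and Ifi30, which encodes a lysosomal thiol reductase, were at least 2-fold lower in the double knockout (-1.84, -1.71 and -1.01). In CD45+EpCAM- cells Ctsh (-1.23) and Ctsl (-1.02) were lower.

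The promoter complex that recruits CIITA (Rfx5, Rfxap, Rfxank, Nfya, Nfyb, Nfyc and Creb1) held no gene that was 2-fold apart between genotypes in any population. Its median was 0.04 over the 5 genes measured in CD45-EpCAM+ cells, -0.20 over 7 in CD45+EpCAM- cells and -0.06 over 7 in thymocytes. Nfyb (-1.66) and Creb1 (-1.05) were lower in the epithelial than in the CD45+EpCAM- fraction by limma (adjusted p = 0.00451 and 0.0173). Of 9 genes of the interferon gamma pathway, which induces Ciita, none was seen to be 2-fold apart between genotypes in either stromal fraction, where Ifng in CD45-EpCAM+ cells gave only a bound, and Ifng was lower in double-knockout thymocytes (-1.40). Irf1 and Ifngr2 were higher in the epithelial than in the CD45+EpCAM- fraction (1.29 each) and Ifngr1 (-1.53) and Ifng (-1.25) lower, by limma.

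Costimulatory genes also differed between genotypes. In CD45-EpCAM+ cells 3 of 5 were at least 2-fold lower in the double knockout, Icosl (-1.66), Cd86 (-1.47) and Cd40 (-1.39), and in CD45+EpCAM- cells 2 of 5, Cd40 (-1.84) and Icosl (-1.28), where Cd86 differed by 0.07. Cd40 (3.96), Icosl (3.63) and Cd274 (2.94) were higher in the epithelial than in the CD45+EpCAM- fraction by limma (adjusted p = 0.023, 0.0112 and 0.00303). Of the 3 genes that set class II turnover, Marchf1, a ubiquitin ligase that removes class II from the surface, was higher in double-knockout CD45-EpCAM+ cells (1.37). Cd83, which opposes that ligase, differed by 0.80 in CD45-EpCAM+ and by -0.92 in CD45+EpCAM- cells.

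**Figure D5:**
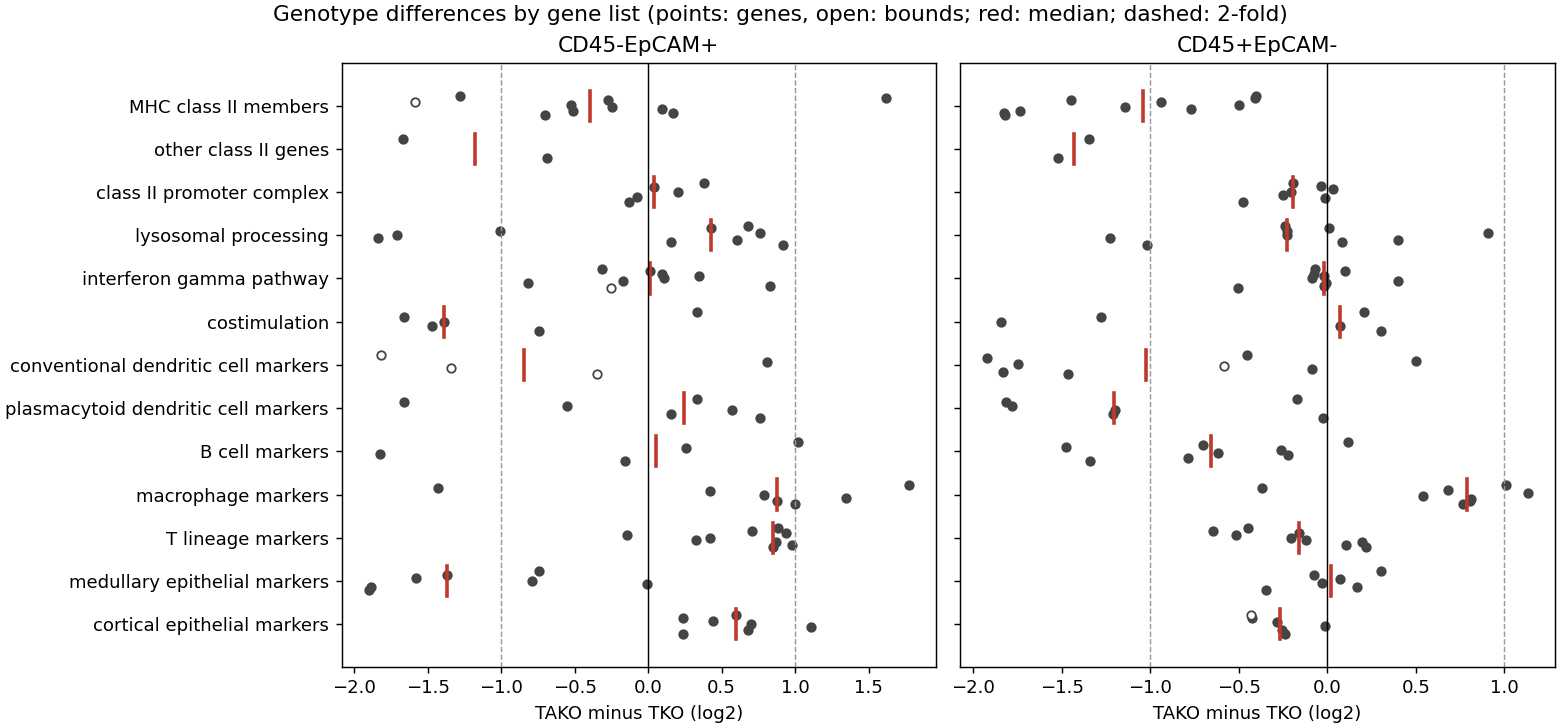
Difference between the double knockout and the TNF knockout (TAKO minus TKO, log2) for each gene of the class II genes, the pathway lists and the cell type markers in CD45-EpCAM+ (left) and CD45+EpCAM- cells (right); points are genes, open points bounds, red bars medians and dashed lines 2-fold. In CD45+EpCAM- cells the median of the 10 class II genes was -1.04, that of conventional dendritic cell markers -1.02, that of plasmacytoid markers -1.20 and that of macrophage markers 0.79.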

How the data were processed

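Total RNA of sorted thymic cells was hybridised to 6 one-colour Agilent arrays. The intensity per spot is the processed signal that the authors' scanner software wrote, which per the file headers is background-corrected. Log2 values in the authors' deposited table matched the levels used here, with no sign of centring per gene, and served as an alternative.

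Spots flagged as outliers and control spots were left out, spots of a probe were averaged, and log2 intensity minus the array's 75th percentile was taken as level. Of 39429 probes 39419 were used. By matching the accession given for each probe to RefSeq, 27472 had 1 symbol, 35 several and 11912 none. A gene's level is that of its brightest probe by mean over the 6 arrays. Differences between populations and the genotype effect common to them were tested with limma 3.58.1 in R 4.3.3 (population and genotype in the model, 2 residual degrees of freedom, Benjamini-Hochberg adjustment) on the 13743 genes that 3 or more arrays showed well above background. A call needed an adjusted p under 0.05 and a 2-fold difference. Differences between genotypes within a population rest on 1 array each and have no test. A gene dim on 1 array was given a bound from the lowest signal well above background there, and one dim on both no fold. P-values measure only the spread between these arrays, and the number of arrays limits the precision. Summed levels of marker lists are the log2 of the summed linear values.

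The 10 genes, the lists and the rule for named genes were chosen with earlier results of these data known. All 10 genes are named, of the pathway lists those 2-fold apart between genotypes (up to 4 per list and pair) and the 2 to 4 with the widest difference between the stromal fractions, and the 5 nearest profiles for H2-Ab1 and Ciita. Alternatives were normexp background correction (offset 50), quantile normalization, centring on the median, the mean over probes, other filters, the deposited table and leaving out each array. Normexp used the median signal, since the files hold no mean signal. The fit was tested on simulated data. Promoter windows came from RefSeq, GRCm38.p6; H2-Ea had no named probe, and windows for H2-Ab1, Ciita and Cd74 were not used here. One marker gene of the B cell list is not reported here.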

Additional observations from a re-analysis of the deposited data

Results flagged for a closer look

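These differences had opposite signs in 2 populations, each beyond the SD between probes of the same gene in its pair. With 1 array per group none was tested, and each value is the double knockout minus the TNF knockout on the log2 scale. For H2-Ab1 the values in CD4+CD25hi thymocytes and CD45+EpCAM- cells were 0.85 and -1.82, which are 2.67 apart. For H2-Eb1 they were 1.11 and -1.74, which are 2.85 apart (2.845), and against CD45-EpCAM+ cells (-0.51) the gap was 1.62. For H2-DMa they were 0.42 and -0.77, a gap of 1.19. Ciita had 1.62 in CD45-EpCAM+ and -0.41 in CD45+EpCAM- cells, a gap of 2.02, and 0.43 in thymocytes, a gap of 0.83 to CD45+EpCAM- cells. It was read by 1 probe of low signal. In CD45-EpCAM+ cells the lowest level well above background was -2.82 in the double knockout and -4.78 in the TNF knockout. Whether that rise bears on the gap was not tested. Ctss had 0.24 in thymocytes, -0.40 in CD45+EpCAM- and -1.28 in CD45-EpCAM+ cells, with gaps of 0.64 and 1.52.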

How the results depend on the processing

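No paired analysis was possible because the labels give no replicate numbers and each group had 1 array; population is already the block of the genotype fit. The count of 5 class II genes higher in CD45+EpCAM- cells than in thymocytes was 0 to 5 when 1 array was left out, and 0 whenever the array left out was 1 of the 4 of these populations, in which case no gene at all passed; these fits have fewer samples. Between the stromal fractions 7 genes were called, all higher; with 1 array left out 5 to 8 were called, of which 5 to 7 were higher and up to 2 lower. The single gene 2-fold higher in double-knockout thymocytes, H2-Eb1, was lost with normexp and with quantile normalization (0 genes each). Ciita turned between CD45+EpCAM- cells and thymocytes, to -0.33 with normexp (limma adjusted p = 0.537) and -0.40 without the TNF-knockout CD45+EpCAM- array (limma adjusted p = 0.73), against 1.03 without the double-knockout one; the cause was not tested. Of the counts over the 10 genes under other settings, 70 stayed within 1.5 times and 6 did not. Among the 70 are counts of the common genotype effect, for which no gene of the array passed under any setting. Others come from the deposited table, whose values matched the levels used here. Such counts could hardly move, so the 70 do not measure how robust the results are. Over all genes, 2665 higher and 2636 lower between the stromal fractions became 3104 and 1957 when centred on the median, 3220 and 2163 under normexp, 2337 and 3194 with quantile normalization, 6251 and 2576 without a filter, and, with 1 CD45+EpCAM- array left out, 1388 and 834 (double knockout left out) or 1313 and 698 (TNF knockout left out). Between CD45-EpCAM+ cells and thymocytes 2839 and 2511 became 3236 and 1841 with median centring, 2467 and 3057 under quantile normalization, 5581 and 2402 without a filter, and, with 1 thymocyte array left out, 1940 and 1325 (double knockout) or 1799 and 1053 (TNF knockout). Between CD45+EpCAM- cells and thymocytes 1074 and 660 became 687 and 639 with normexp and 314 and 126 without a filter. Genes at least 2-fold higher and lower in the double knockout with normexp numbered 472 and 570 in CD45-EpCAM+ cells, 66 and 108 in CD45+EpCAM- cells and 33 and 18 in thymocytes. Signal over background limits H2-Aa in thymocytes and H2-Ob in double-knockout CD45-EpCAM+ cells.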
